A study of Mus musculus with 8 samples.

Results

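The region described here is the stretch of mouse chromosome 15 that holds Myc and the long gene-poor interval downstream of it, from 61900000 to 63800000 in the GRCm38 build. Its members were all peaks of histone H3 lysine 27 acetylation (H3K27ac), a mark of active promoters and enhancers, with at least 1 base in this interval. They numbered 64 of 34553 peaks in the wild-type (wt) list and 55 of 29902 peaks in the ΔIkE120 list. The study asked how an element called IkE120, an enhancer of the Ikaros gene Ikzf1, acts in developing T cells. H3K27ac was profiled by ChIP-seq in P5424, a mouse cell line that resembles T cell precursors of the thymus, in the parental wt line and in 1 clone in which both copies of IkE120 had been deleted with CRISPR-Cas9. Each genotype had 1 library, so no difference between the lists below has a replicate check, and the clone and the deletion cannot be told apart. Whether the cells used for ChIP had been stimulated was not stated, and the peak lists do not give the sequencing depth.

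Myc encodes a transcription factor that drives growth and division, and developing T cells depend on it when they proliferate after the pre-T cell receptor signals. Its neighbour Pvt1 is a long noncoding RNA gene on the same strand, and beyond Pvt1 lies a desert with almost no protein-coding gene. Known distal elements in that desert include a Notch-bound enhancer used in T cell precursors and T cell leukaemia, more than 1 Mb downstream of Myc, and farther out a cluster of enhancers used in blood stem cells and their progeny. The lists hold acetylation only. Binding of Notch and contact with the Myc promoter were not analysed here, so a peak is described by its position and not by the name of an enhancer.

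The genotype label could be checked at the deleted element itself, which lies about 120 kb upstream of Ikzf1 on chromosome 11. Within 5 kb of that distance the wt list covered 2219 bases and the ΔIkE120 list 826. The main wt peak there ran from 11563705 to 11565348, and the main ΔIkE120 peak covered only the downstream side of it, from 11564652 to 11565363. These peaks held 1644 and 712 of the bases. The main ΔIkE120 peak was shorter but not weaker. Its fold enrichment over the peak caller’s background was 3.74, against 2.58 for the wt peak. Its −log10 q-value, which rises with confidence in the peak, was 12.0, against 9.83. Each was the peak of highest q-value of its list in that window. The promoters of T cell genes carried the mark in both lists. All 9 genes of a T cell precursor list (Cd3e, Cd3g, Ptcra, Lck, Tcf7, Bcl11b, Gata3, Notch1 and Thy1) had a peak within 1 kb of a start in the wt list and in the ΔIkE120 list. Of the lists for other cell types, 0 of 3 placed myeloid genes, 1 of 2 erythroid genes, 1 of 3 embryonic stem cell genes and 1 of 3 fibroblast genes had one, with the same counts in both lists. The embryonic stem cell gene, Pou5f1, counted only through a start other than the placed one, where neither list had a base under a peak. For comparison, 45.0% of 20921 protein-coding starts, 1 per gene, had a wt peak within 1 kb and 44.3% had a ΔIkE120 peak. The gene lists accept a peak at any start of a gene, so the 2 rules differ.

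The annotation placed 19 genes at least partly in the interval, and 2 of them were protein-coding: Myc near the upstream end and Gsdmc, a gasdermin gene that crosses the downstream edge. A further 9 were long noncoding RNA genes, Pvt1 included, and the rest were the pseudogenes Gm18788, Macroh2a3, Tsg101-ps, Gm4942, Gm5473 and Gm46499 and the small RNA genes Gm22521 and Gm25702, none of which held a base under a peak in either list. Myc starts at 61985341 on the plus strand, and all distances below are counted from there. In the wt list the interval held 39158 bases under peaks, or 20610 bases per Mb. In the ΔIkE120 list it held 33372 bases, or 17564 per Mb, which gave a ratio of ΔIkE120 to wt of 0.852. Over all chromosomes the ratio was 0.879, on chromosome 15 it was 0.836, and single chromosomes ran from 0.810 to 0.968. The interval therefore had fewer called bases in the ΔIkE120 list by about as much as the genome did. When the same number of peaks was taken from each list, by q-value, the wt list kept 48 peaks in the interval against 55, and the ratio was 0.996 in the interval and 0.942 over all chromosomes.

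The mark was not spread evenly along the desert. The 85.3 kb upstream of Myc held 1171 wt bases and 1205 ΔIkE120 bases, most of them at the Myc promoter. Away from the promoter the wt list alone had a peak in this zone, from 61969564 to 61969857, with a fold enrichment of 3.07 and a −log10 q-value of 1.99. From the Myc start to the end of Pvt1 there were 7279 wt bases in 11 peaks and 4610 ΔIkE120 bases in 5 peaks, a ratio of 0.633. Between the end of Pvt1 and 1 Mb the lists held 7742 bases in 14 peaks and 6028 bases in 13 peaks, a ratio of 0.779. With peaks at or above the median q-value of their list it was 0.512, from 2 wt peaks and 1 ΔIkE120 peak. Over all its peaks this last zone was the sparsest in both lists, with 10677 wt bases and 8313 ΔIkE120 bases per Mb. The zone from 1 to 1.5 Mb held the most in both lists, with 16866 wt bases in 25 peaks and 17437 ΔIkE120 bases in 27 peaks. That was 43.1% of all wt bases and 52.3% of all ΔIkE120 bases of the interval, with a ratio of 1.03 beside the genome-wide 0.879. That order depended on the peaks used: with equal numbers of peaks the ratio was 1.26 against 0.942 over all chromosomes, and with peaks at or above the median q-value of their list it was 0.734 against 0.874. From 1.5 Mb to the edge the lists held 6100 bases in 11 peaks and 4092 bases in 8 peaks, a ratio of 0.671.

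A map in 100 kb bins showed the same concentration. Of the 18 bins downstream of the Myc start, 3 had no base under a wt peak (16.7%, exact Clopper-Pearson 95% interval 3.58 to 41.4%) and 2 had none under a ΔIkE120 peak (11.1%, 1.38 to 34.7%). These intervals, like the others below, cover counting error only, and neighbouring bins or peaks are not independent. The bins from 200 to 300 kb and from 600 to 700 kb were empty in both lists. The bin from 500 to 600 kb was empty in the wt list only and held 328 bases in the ΔIkE120 list. At the other extreme stood a pair of neighbouring bins. The bin from 1200 to 1300 kb held 6073 wt bases and 6362 ΔIkE120 bases, and the bin from 1300 to 1400 kb held 6295 and 6871. The median bin held 1756 wt bases and 1268 ΔIkE120 bases, and in each list both distal bins exceeded all other bins, those with Myc and Pvt1 included.

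At the Myc promoter both lists had 3 peaks that lay around the start. In the wt list the most upstream ran from 61984140 to 61984488, with a fold enrichment of 2.14 and a −log10 q-value of 5.50. The next ran from 61984716 to 61985243, with a fold of 2.66 and a −log10 q of 12.0, and the one in the gene from 61985557 to 61987005, with a fold of 2.76 and a −log10 q of 13.3. The annotated start thus lay in the gap between the middle peak and the peak inside the gene. In the ΔIkE120 list the corresponding peaks ran from 61983919 to 61984511 (fold 1.89, −log10 q 3.74), from 61984729 to 61985398 (fold 2.40, −log10 q 9.97) and from 61985597 to 61987032 (fold 2.90, −log10 q 17.7). Here the middle peak reached past the start, and the peak inside the gene was the strongest of the 3 in both lists. Within 2.5 kb of the start the wt list covered 2326 bases and the ΔIkE120 list 2699, a ratio of 1.16. Over 9722 protein-coding starts with bases in both lists the median ratio was 0.982, with quartiles of 0.885 and 1.08, and 14.2% of these starts had a ratio at or above that of Myc. The breadth at Myc was more unusual than its ratio, since 1.58% of these starts had at least as many wt bases and the median start had 1215. The direction at Myc turned when only peaks at or above the median q-value of their own list were used, with a ratio of 0.905.

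The start of Pvt1, 52.6 kb downstream of Myc, carried the peak with the highest fold enrichment and the highest q-value of the whole interval in each list. In the wt list it ran from 62037647 to 62038903, with a fold of 4.12 and a −log10 q of 14.8. In the ΔIkE120 list it ran from 62037618 to 62038883, with a fold of 4.60 and a −log10 q of 21.1. The 2 peaks had nearly the same width, 1257 and 1266 bases. Pvt1 as a whole held 9 wt peaks with 5198 bases and 4 ΔIkE120 peaks with 2748 bases. All 4 ΔIkE120 peaks overlapped a wt peak, while 5 of the 9 wt peaks had no ΔIkE120 counterpart. Over all peaks, 13.6% of ΔIkE120 peaks and 25.6% of wt peaks had no overlap. These 5 were among 8 wt peaks of Pvt1 below the median q-value of the wt list, and of all wt peaks below that median 48.4% had none. At 100 to 200 kb from Myc, 8 wt peaks covered 4280 bases and 3 ΔIkE120 peaks covered 1850. The 8 wt peaks were weak, with −log10 q-values from 1.43 to 2.83, all below the median of 4.12 for the whole wt list. The strongest ΔIkE120 peak there, at 62138939 to 62139504, had a fold of 3.52 and a −log10 q of 4.53, against 2.82 and 2.83 for the wt peak at the same place. The ratio of 0.633 from Myc to the end of Pvt1 was 0.747 with equal numbers of peaks, beside 0.942 over all chromosomes. With peaks at or above the median q-value of their list it was 1.23, from 2 wt and 3 ΔIkE120 peaks. The ΔIkE120 peak at 62138939 among them was only just above the median of 4.47, while its wt counterpart fell below the median of its own list.

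Between the end of Pvt1 and 1 Mb the peaks were scattered, and few were strong. The highest wt fold of this zone was at 62294932 to 62295854, 310.1 kb from Myc, with a fold of 3.42 and a −log10 q of 4.51. The ΔIkE120 peak at the same place ran from 62294902 to 62295881, with a fold of 2.96 and a −log10 q of 2.80. The longest wt peak ran from 62762906 to 62763949, 778 kb from Myc (fold 3.28, −log10 q 3.10), and it matched the ΔIkE120 peak of highest fold in the zone, from 62763231 to 62763853 (fold 3.52, −log10 q 2.93). The highest q-value of the zone was shared by position, at 62884788 to 62885502 in the wt list (fold 3.17, −log10 q 6.11) and at 62884832 to 62885670 in the ΔIkE120 list (fold 3.04, −log10 q 5.67). Of the 14 wt peaks 9 were overlapped, against 74.4% of all wt peaks, and of the 13 ΔIkE120 peaks 10 were, against 86.4% of all ΔIkE120 peaks. The noncoding genes Gm41333 and Gm30113, which start 684 and 969 kb from Myc, had no peak in either list.

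The densest stretch of the desert was the window from 1.2 to 1.4 Mb, set around the distance at which the Notch-bound enhancer is known to lie. It held 12368 wt bases and 13233 ΔIkE120 bases, each in 18 peaks, which were 31.6% and 39.7% of the bases of the interval and gave a ratio of 1.07. With peaks at or above the median q-value of their list this ratio was 0.787. Its longest peak, and the one with the highest q-value, lay 1269 kb from Myc in both lists. It ran from 63253783 to 63255639 in the wt list, with a fold of 2.16 and a −log10 q of 12.5. In the ΔIkE120 list it ran from 63253847 to 63255607, with a fold of 2.16 and a −log10 q of 13.3. By length, fold and q-value this peak was thus nearly alike in the 2 lists. It was followed by a companion at 63256358 to 63257121 in the wt list (fold 1.69, −log10 q 4.53) and at 63256315 to 63257408 in the ΔIkE120 list (fold 1.66, −log10 q 4.24).

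A group of 4 further shared peaks followed, out to 1307 kb from Myc. At 1285 kb the wt peak ran from 63270081 to 63271049 (fold 2.39, −log10 q 9.24) and the ΔIkE120 peak from 63270076 to 63271118 (fold 2.33, −log10 q 8.98). At 1295 kb they ran from 63279556 to 63280919 (fold 2.31, −log10 q 8.82) and from 63279452 to 63281194 (fold 2.24, −log10 q 9.27). Both places had about the same fold in the 2 lists. At 1303 kb the wt peak from 63287920 to 63288922 had a fold of 1.89 and a −log10 q of 4.84, and the ΔIkE120 peak from 63288024 to 63288803 had 1.72 and 2.88. The last of the group, at 63291204 to 63292506 in the wt list (fold 1.97, −log10 q 5.65) and 63291330 to 63292741 in the ΔIkE120 list (fold 1.94, −log10 q 5.24), differed little. Between them the ΔIkE120 list had 2 additional short peaks. One ran from 63287028 to 63287244, with a fold of 1.60 and a −log10 q of 1.42. The other ran from 63274870 to 63275144, with a fold of 1.80 and a −log10 q of 3.51, and had the highest q-value of all ΔIkE120 peaks of the interval without a wt overlap.

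When peaks with gaps of up to 10 kb were joined, this group formed the domain with the most covered bases in the interval. In the wt list it ran from 63270081 to 63299815, joined 5 peaks with 5071 bases and ranked 203 of 20239 domains. The last of these 5, from 63299384 to 63299815 (fold 1.88, −log10 q 1.32), had no ΔIkE120 overlap. In the ΔIkE120 list it ran from 63270076 to 63292741, joined 6 peaks with 5470 bases and ranked 99 of 18190. The domain at the Myc promoter ranked lower, at 2092 in the wt list, with 2326 bases, and at 1116 in the ΔIkE120 list, with 2699. The other wt domains with the most bases were 63253783 to 63257121, with 2621 bases, 62752341 to 62763949, with 1944, and 62129354 to 62139463 inside Pvt1, with 1775. The interval held 41 joined domains in the wt list and 34 in the ΔIkE120 list. Joining over 5 kb changed which domain led the wt list: the one at 63253783 came out on top and ranked 486. The Myc promoter domain came next in that list, at 874. In the ΔIkE120 list it then ranked 318, and the leading domain of the interval ranked 155.

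A few distal peaks combined a low fold enrichment with a high q-value. In the window from 1.2 to 1.4 Mb, 8 of 18 wt peaks (44.4%) and 6 of 18 ΔIkE120 peaks (33.3%) had a q-value at or above the median of their list. Over all peaks this share is 50% by construction, and in the rest of the interval it was 17.4% and 18.9%. Fold is the enrichment of a peak over the background that the peak caller used. The sources used here do not say whether it was taken at the top of a peak or averaged over its length. Whether the background came from an input library or from the same library is not given either. In the wt list the peak at 1269 kb stood at the 84.6th percentile by q-value and at the 6.70th by fold. Of the 5305 wt peaks with at least its q-value, 5 had a fold this low, the peak itself included. In the ΔIkE120 list it stood at the 83.9th percentile by q-value and the 5.34th by fold, and of the 4825 peaks with at least its q-value no other peak had so low a fold. Among wt peaks, 3 of 64 in the interval were in the top 25% by q-value and the lowest 25% by fold, against 0.729% of all wt peaks. Among ΔIkE120 peaks it was 2 of 55, against 0.492%. The 3 wt peaks were those at 1269, 1285 and 1295 kb, and the 2 ΔIkE120 peaks were that at 1269 kb and the middle peak at the Myc promoter. The peaks that differed between the lists lay close to the limits. By q-value the ΔIkE120 peaks at 1285 and 1295 kb stood at the 72.7th and 73.6th percentiles, and the wt peak at 1295 kb at the 75.1st. The wt middle peak at the Myc promoter stood at the 26.6th percentile by fold. This rule was chosen after the values had been seen, as were its limits, and the counts are small. With the medians in place of the outer 25%, the interval had 11 of 64 wt peaks (17.2%) against 12.2% of all, and 11 of 55 ΔIkE120 peaks (20.0%) against 11.2%.

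Low fold was general in the interval, and it was most pronounced in the window from 1.2 to 1.4 Mb. The median fold of the members was 2.65 in the wt list, where all peaks had 3.04, and 2.60 in the ΔIkE120 list, where all peaks had 3.16. In the wt list 56 of 64 members lay below the median fold of all peaks (87.5%), and in the ΔIkE120 list 51 of 55 did (92.7%). On chromosome 15 as a whole the shares were 58.3% and 56.4%. Inside the window the median fold was 2.34 and 2.16, and 7 of 18 wt peaks and 13 of 18 ΔIkE120 peaks were in the lowest 10% of their list. Outside it the medians were 2.76 and 2.68. The promoters of the T cell precursor genes also had low folds, with the highest fold per gene below the median of all peaks at 8 of 9 genes in the wt list and at 9 of 9 in the ΔIkE120 list. Over all protein-coding starts with a peak within 1 kb, taking 1 start per gene, this share was 10.8% in each list. Promoters of the MYC network were below the median at 3 of 11 marked genes in each list, and those of the Notch pathway and T cell enhancer factors, a list that shares Tcf7, Gata3 and Notch1 with the T cell list, at 9 of 14 and 10 of 14. The q-value was at or above the median of the list for 8 of 9 T cell genes in each list, against 92.8% of all marked starts in the wt list and 92.2% in the ΔIkE120 list, so high q-values were common to marked promoters. What sets the fold at these places was not tested.

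The q-values of the members were mostly low, and overlap is given below over all members and by q-value. What sets the overlap was not tested. The median −log10 q was 2.64 in the wt members, where all peaks had 4.12, and 2.80 in the ΔIkE120 members, where all peaks had 4.47. At least 1 base of a ΔIkE120 peak lay under 43 of the 64 wt peaks (67.2%, 54.3 to 78.4%), which left 21 without one (32.8%), against 25.6% of all wt peaks. A wt peak overlapped 42 of the 55 ΔIkE120 peaks (76.4%, 63.0 to 86.8%), which left 13 without one (23.6%), against 13.6% of all ΔIkE120 peaks. On chromosome 15 as a whole, 29.5% of wt peaks and 14.3% of ΔIkE120 peaks had no overlap. Divided at the median q-value of each list, the members were nearer to the background. Of the stronger wt members 0 of 16 had no ΔIkE120 peak, against 2.73% of all stronger wt peaks, and of the stronger ΔIkE120 members 0 of 13 had no wt peak, against 0.609%. Of the weaker wt members 21 of 48 had none (43.8%, 29.5 to 58.8%), against 48.4%. Of the weaker ΔIkE120 members 13 of 42 had none (31.0%, 17.6 to 47.1%), against 26.5%. Every peak of the interval at or above the median q-value of its list was thus met by a peak of the other list, though in part by weak ones: with both lists held to peaks at or above their median, 68.8% of these wt members and 84.6% of these ΔIkE120 members were overlapped, against 80.1% and 92.3% of all peaks. The peaks called in 1 list were weak, and most were short. The 21 wt peaks had a median length of 348 bp and −log10 q-values of at most 2.97, and the 13 ΔIkE120 peaks had a median length of 275 bp and −log10 q-values of at most 3.51. The longest had 783 and 651 bp, above the medians of 603 and 628 bp for all peaks of the lists. When the same number of peaks was taken from each list, the order of the shares turned, with 77.1% of the wt members and 65.5% of the ΔIkE120 members overlapped. Over all peaks under that setting the shares were 81.4% and 82.3%.

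Where the lists overlapped, peaks that touched were merged into 41 shared stretches. The ΔIkE120 list had fewer bases than the wt list in 21 of them (51.2%), against 58.3% of 24726 shared stretches in the genome, and more in 20. The median ratio of bases was 0.991, with quartiles of 0.702 and 1.14, and over the genome it was 0.961. The median ratio of the highest fold was 0.988, against 1.03 over the genome. The extremes of the base ratio were both in the window from 1.2 to 1.4 Mb. At 63376971 to 63378085 the wt list had 1115 bases and the ΔIkE120 list 464 (ratio 0.416), yet the highest folds were 2.90 and 2.99. At 63319799 to 63320395 the lists had 224 and 415 bases (ratio 1.85), with folds of 1.82 and 1.84. At the latter place the wt peak, from 63320172 to 63320395, and the ΔIkE120 peak, from 63319799 to 63320213, overlapped only at their edges. Across the 41 stretches the −log10 q-values of the lists had a Spearman correlation of 0.773 and the folds one of 0.824, against 0.884 and 0.896 over the genome. These stretches share 2 libraries and are not replicates.

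Over the whole zone from 1 to 1.5 Mb the highest wt fold was at 63346790 to 63347111 (fold 3.33, −log10 q 7.37), 1362 kb from Myc. The ΔIkE120 peak at that place, 63346728 to 63347145, had a fold of 2.91 and a −log10 q of 5.36. The highest ΔIkE120 fold of the zone was at 63377506 to 63377969, with a fold of 2.99 and a −log10 q of 5.61. Of the 25 wt peaks of the zone 19 were overlapped, against 74.4% of all wt peaks. Of the 27 ΔIkE120 peaks 18 were, against 86.4% of all ΔIkE120 peaks, which left 9 of the 13 ΔIkE120 members without a wt peak in this zone. All 9 were below the median q-value of the ΔIkE120 list, and of all ΔIkE120 peaks below it 26.5% had no overlap. Over the interval, 47 of the 55 ΔIkE120 members overlapped a wt peak or lay within 500 bp of 1. Of all 29902 ΔIkE120 peaks, 26973 did. The noncoding genes of this zone mostly lacked a mark at their starts. Gm41334 and Gm41335 had no peak, and Gm30159 had 1 weak peak inside the gene in each list but none within 1 kb of its start. Gm20740, on the minus strand, held 4 wt peaks with 2407 bases and 5 ΔIkE120 peaks with 2239 bases. It was also the only noncoding gene beyond Pvt1, among those with a placed start, with a peak within 1 kb of that start, which lies at 63479608, 1494 kb from Myc. The wt peak there ran from 63478982 to 63479601 (fold 2.98, −log10 q 5.49) and the ΔIkE120 peak from 63479288 to 63479986 (fold 2.67, −log10 q 3.26). The edges of the peaks differed, since the wt peak ended short of the start and the ΔIkE120 peak covered it.

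The promoter of Gm20740 is printed because it is the one marked promoter of the interval for which the RefSeq promoter table held a sequence. The window runs from 250 bases before to 50 bases after the start, at chr15:63479559-63479858 of GRCm38.p6, and is given 5′ to 3′ on the minus strand. Peaks covered 43 of its 300 bases in the wt list and all 300 in the ΔIkE120 list. It was searched on both strands for short cores bound by factors of T cell enhancers. The capitals mark the matches: the RUNX core TGTGGT at position 134 and the reverse complement of the E-box CAGATG at position 290, counted from the 5′ end. The RUNX core occurs in 16.8% of 32851 RefSeq promoter windows and this E-box in 17.2%. The other cores searched had no match in the window. They were TGGGAA for RBPJ (25.6% of promoters), CAGGAA for ETS factors (30.6%), AGATAA for GATA factors (11.2%), CTTTGA for TCF and LEF factors (16.0%), the E-box CAGCTG (16.3%) and the MYC-type E-box CACGTG (7.15%). The 2 matches did not overlap, and a match describes letters, not binding.
Gm20740 promoter: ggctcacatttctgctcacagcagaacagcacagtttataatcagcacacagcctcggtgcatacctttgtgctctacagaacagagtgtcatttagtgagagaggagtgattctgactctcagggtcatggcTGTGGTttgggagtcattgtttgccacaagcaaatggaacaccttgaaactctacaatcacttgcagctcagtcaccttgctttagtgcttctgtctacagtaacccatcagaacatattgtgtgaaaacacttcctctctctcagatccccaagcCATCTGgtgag

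From 1.5 Mb to the edge, the zone where the blood enhancer cluster is known to lie, most peaks were modest. The longest wt peak ran from 63558607 to 63560310, 1574 kb from Myc (fold 2.81, −log10 q 2.84), and the ΔIkE120 peak there from 63558729 to 63559963 (fold 3.02, −log10 q 3.75). At 1616 kb the wt peak from 63600662 to 63601676 had a fold of 2.21 and a −log10 q of 3.36, and the ΔIkE120 peak from 63600762 to 63601374 had 2.55 and 5.42, the highest q-value of the zone in that list. The highest wt fold and q-value of the zone were at 63652114 to 63652612, 1667 kb from Myc, with 3.06 and 7.37. A wt peak of lower fold followed it, from 63652811 to 63653082, with a −log10 q of 3.76. The ΔIkE120 list had 1 peak over both places, from 63652115 to 63653041, with a fold of 2.60 and a −log10 q of 4.70. The highest ΔIkE120 fold of the zone, 3.25, was in a short peak from 63590138 to 63590365. Of the peaks of this zone, 8 of 11 in the wt list and 7 of 8 in the ΔIkE120 list were overlapped, against 74.4% and 86.4% of all peaks, and neither list had the higher values throughout. Beyond 1.7 Mb the wt list had a peak in the noncoding gene 4930449C09Rik, from 63721131 to 63721771 (fold 2.84, −log10 q 2.60), without a ΔIkE120 peak. Gm41336 held 1 peak in each list, and Gsdmc had none. The ratio of 0.671 for this zone was 3.09 when only peaks at or above the median q-value were used, which left 1 wt peak and 2 ΔIkE120 peaks.

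An interval cut at the same distances around the start of Bcl11b, mirrored because that T cell gene lies on the minus strand, held more of the mark than that of Myc. It ran from 106189486 to 108089486 on chromosome 12 and held 98 wt peaks with 67488 bases and 92 ΔIkE120 peaks with 62708 bases, a ratio of 0.929. Of these, 27 wt peaks (27.6%, 19.0 to 37.5%) and 20 ΔIkE120 peaks (21.7%, 13.8 to 31.6%) had no overlap in the other list, against 25.6% and 13.6% of all peaks. The shares for Myc, 32.8% (21.6 to 45.7%) and 23.6% (13.2 to 37.0%), lay within these intervals.

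Genes of the MYC network and of the Notch pathway were marked at their promoters in equal number in the 2 lists, beside 45.0% of all protein-coding starts in the wt list and 44.3% in the ΔIkE120 list. A gene of these lists counted if any of its starts had a peak. The share of all starts took 1 start per gene, so the 2 are not like for like. Of 13 genes for MYC family members and their partners, Myc included, 11 had a peak within 1 kb of a start in each list, and Mycn and Mycl, the paralogs of Myc, were the ones without. Mxi1 and Mga counted only through a start other than the placed one, where neither list had a base under a peak. Max, the partner with which MYC binds DNA, had folds of 3.70 and 3.70. Mnt, a repressor that competes for Max, had folds of 2.65 in the wt list and 2.99 in the ΔIkE120 list. Of 17 genes for the Notch pathway and for factors of T cell enhancers, 14 had a peak in each list, Rbpj only through a start other than the placed one. Notch1, the receptor, had a fold of 2.15 in the wt list and 2.17 in the ΔIkE120 list, and Rbpj, its DNA-binding partner, had 3.08 and 3.20. The Notch targets Hes1 and Nrarp and the factor Ets1 had no peak within 1 kb of a placed start, while Dtx1, another Notch target, had folds of 2.67 and 2.52. No gene of these lists had a peak within 1 kb of a start in 1 list only.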

How the data were processed

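H3K27ac ChIP-seq of P5424 cells was analysed from 2 peak lists, 1 library per genotype; the 4C files were not used here. Per the submitters' processing notes, Bowtie2 2.3.4.3, MACS2 2.1.1 and GRCm38 were named, with no role stated. The deposited lists give each peak a score (not used), the fold enrichment, and the −log10 p-value and −log10 q-value of the authors' peak caller. BED starts were made 1-based. Depth is unknown, so the number of bases called can differ with it. Peaks, covered bases, overlaps (at least 1 base), stitched domains and ranks were computed with Python 3.11.15, numpy 2.4.6, pandas 2.3.3 and scipy 1.17.1, and the functions were tested on simulated data. Genes came from RefSeq GRCm38.p6; strands came from its promoter table or, by symbol, from GENCODE M1, whose coordinates were not used. Zone peaks were assigned by midpoint. No test of genotype was possible; shares have exact 95% intervals. Named were all genes of the interval, the peaks at the Myc start, per zone and list the peaks of highest fold and of greatest length, stronger peaks without overlap (there were 0), and the leading wt domains; the other peaks, the Ikzf1 check, the Bcl11b interval and the promoter windows searched for cores were chosen after values were seen. Cores were not searched in the peaks themselves, since no GRCm38 genome was used here. A further marker list is not reported here. Members and lists were chosen with earlier results of these data known. Alternatives were stricter peak thresholds, equal numbers of peaks, other edges, membership, overlap rules, bins and stitching distances.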

Additional observations from a re-analysis of the deposited data

How the results depend on the processing

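No paired analysis was possible because each genotype had 1 library, and for the same reason no library could be left out in turn. Of 61 values recomputed under alternatives, 47 stayed within 1.5 times the main value or within its counting interval. With peaks at or above the median q-value of their list, the members fell to 16 wt and 13 ΔIkE120 peaks, and the ratio of bases was 1.23 from Myc to the end of Pvt1, 0.512 from there to 1 Mb and 3.09 beyond 1.5 Mb. Under the same setting ratios above 1 turned to below 1 upstream of Myc (0.698), at the Myc start (0.905), from 1 to 1.5 Mb (0.734) and in the window from 1.2 to 1.4 Mb (0.787). Bins of 200 kb left 0% without a peak in either list, and bins of 50 kb left 27.8% in each. Stitching over 5 kb moved the rank of the largest domain to 486 in wt and 155 in ΔIkE120, and stitching over 20 kb gave 24 wt domains. With medians in place of outer 25% limits, both chosen after seeing the data, the shares of peaks with high q-value and low fold were 17.2% in wt and 20.0% in ΔIkE120, against 12.2% and 11.2% of all peaks. Fewer peaks, larger bins, wider limits and a longer joining distance can change counts by construction. For the ratios and the ranks the cause was not tested. The ratio of bases over the interval ran from 0.852 to 0.996 under the alternatives. Unknown depth limits every comparison of called bases, and with 1 library each the spread between cultures or clones is unknown.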
